A study of Homo sapiens with 6 samples.

Results

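Laminin chains and the integrin chains that bind laminin or collagen were described here in HCT116 cells, a human colorectal carcinoma line. The 9 genes were taken by symbol from the 17269 genes of the deposited table. They encode 5 laminin chains (LAMA3, LAMA5, LAMB1, LAMB3 and LAMC1) and 4 integrin chains (ITGA2, ITGA3, ITGA6 and ITGB4). Poly(A) RNA was sequenced from 3 libraries of HCT116 cells carrying a short hairpin RNA against PRSS22, labelled shPRSS22 with the genotype PRSS22 knockdown, and from 3 libraries labelled shCtrl with the genotype WT. All cells were grown in RPMI1640 with fetal bovine serum and antibiotics. The design sets cells depleted of PRSS22, a secreted trypsin-like serine protease, against control cells. The sources used here give neither the hairpin nor the time after its introduction, and do not say whether libraries of a group came from separate cultures or clones, so p-values measure only the spread between these libraries, which may be technical.

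Laminins are secreted trimers of an alpha, a beta and a gamma chain that polymerise into the sheet of a basement membrane under epithelial cells. Cells hold on to this sheet through integrins, membrane receptors made of an alpha and a beta chain. The chains of ITGA3 and ITGA6 bind laminin, that of ITGA2 binds collagen, and ITGB4 pairs with ITGA6 in the hemidesmosome, the junction that ties the keratin cytoskeleton to laminin. The chains of LAMA3 and LAMB3 belong to the laminin of hemidesmosomes, while LAMA5 joins LAMB1 or LAMB2 and LAMC1 in the laminins that are widespread under epithelia, the intestine included.

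The libraries held 14920523 to 15466647 counts. PRSS22 itself stood at 3.09, 3.16 and 2.61 CPM (counts per 1000000 counts) in shPRSS22 libraries, against 10.1, 9.38 and 10.1 CPM in shCtrl libraries, a log2 fold change of -1.74 (SE 0.135; edgeR quasi-likelihood test, adjusted p = 4.78e-12). Of 9 markers of colorectal epithelium, 8 stood at 0.5 CPM or more on average, EPCAM, CDH1 and the keratins KRT8, KRT18 and KRT19 among them, and VIL1 stood below that limit. The endothelial marker CDH5 had no count in any library, and the immune marker PTPRC and the fibroblast markers DCN and COL1A2 were each at or under 0.13 CPM in every library. The 4 endothelial markers summed to 1.68 to 2.28 CPM in shPRSS22 libraries and 1.06 to 2.18 CPM in shCtrl libraries, mostly VWF. The 7 fibroblast markers summed to 28.7 to 35.1 CPM in shPRSS22 libraries and 24.6 to 32.3 CPM in shCtrl libraries, nearly all of it COL1A1. The 4 immune markers in the table, of 5 listed, summed to 15.8 to 19.1 CPM in shPRSS22 libraries and 14.3 to 15.8 CPM in shCtrl libraries, mostly CD68, and the 3 smooth muscle markers to 14.0 to 16.1 CPM in shPRSS22 libraries and 10.7 to 12.8 CPM in shCtrl libraries, mostly DES and ACTA2. The part of such levels in the results below was not tested.

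LAMB3, LAMB1, LAMA3 and LAMC1 rose in shPRSS22 cells, LAMA5 did not pass the test, ITGA2, ITGA3 and ITGA6 did not pass it either, and ITGB4 fell. All 9 genes had enough counts to be tested, between 386 and 21224 per library. At an adjusted p under 0.05, 5 of the 9 genes were called, where 39.1% of the 13104 genes tested were. The 4 higher calls stand beside 19.9% of all genes tested, and the 1 lower call beside 19.3%. Leaving out shCtrl replicate 3 left 2 higher calls, and leaving out shPRSS22 replicate 2 left 2 higher and 0 lower. Calls over all genes also fell in these fits, from 2603 higher and 2523 lower. They were 2307 higher and 2175 lower without shCtrl replicate 3, and 2484 higher and 2245 lower without shPRSS22 replicate 2. In 5 of the 9 genes, the same 5, the 2 groups did not overlap, as in 48.6% of all genes tested. The median log2 fold change of the 9 genes was 0.018, against -0.0056 over all genes tested. All changes were small. The largest, that of LAMB3, was 0.32 on the log2 scale, a factor of 1.25. The median size among all called genes was 0.25 on the log2 scale.

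**Figure D1:**
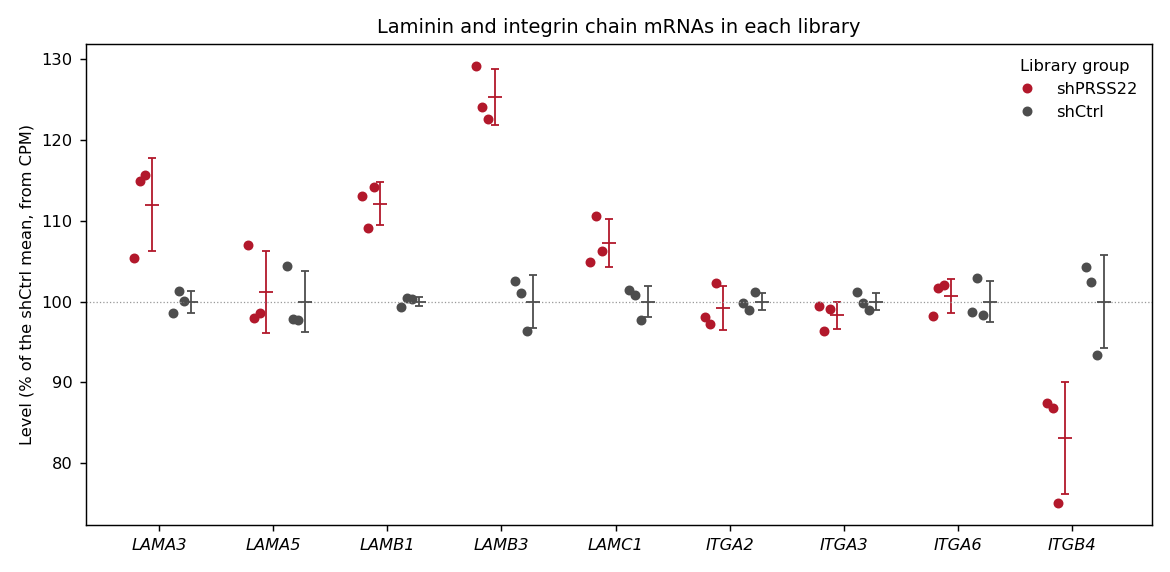
Level of each of the 9 genes in each library, as a percentage of the mean of the shCtrl libraries (vertical axis, from CPM), with the shPRSS22 libraries on the left and the shCtrl libraries on the right of each gene. Points are libraries, and the dash and bar beside them give the mean and SD of 3 libraries; the points of LAMA3, LAMB1, LAMB3, LAMC1 and ITGB4 do not overlap between groups.

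The stretches of genome just before annotated start sites of laminin genes that rose are shown first. Which start sites the measured transcripts used was not tested. RefSeq promoter sequences of GRCh38.p14 matched 7 of the 9 genes (10 start sites). LAMB3 is shown at the one of its 3 start sites where the motif marked below was found, LAMA3 at a start site inside the gene, and LAMB1 as a gene that rose and has no such motif there, each with the 250 bases before the RefSeq start, 5′ to 3′ on the strand of the gene. Capitals mark TGANTCA, where N is any base, a pattern that reads the same on both strands. It includes TGACTCA and TGAGTCA, the letters bound by the transcription factor AP-1. The pattern also accepts A or T at its centre, so it is wider than the AP-1 site.
LAMB3: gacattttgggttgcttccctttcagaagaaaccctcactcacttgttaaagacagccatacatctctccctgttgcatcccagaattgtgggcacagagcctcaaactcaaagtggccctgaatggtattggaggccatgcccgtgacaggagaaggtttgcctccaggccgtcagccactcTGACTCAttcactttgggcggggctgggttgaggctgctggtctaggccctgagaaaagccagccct
LAMA3: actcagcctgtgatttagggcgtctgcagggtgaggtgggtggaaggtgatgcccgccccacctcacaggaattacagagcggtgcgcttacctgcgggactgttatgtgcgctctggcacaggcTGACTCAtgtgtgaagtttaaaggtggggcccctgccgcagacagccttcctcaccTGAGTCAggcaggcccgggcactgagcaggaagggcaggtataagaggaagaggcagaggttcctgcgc
LAMB1: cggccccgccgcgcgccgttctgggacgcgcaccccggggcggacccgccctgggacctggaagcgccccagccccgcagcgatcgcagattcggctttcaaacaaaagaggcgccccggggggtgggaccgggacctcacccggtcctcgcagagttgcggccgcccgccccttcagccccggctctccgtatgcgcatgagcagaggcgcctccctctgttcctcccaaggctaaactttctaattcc

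The windows lie at chr1:209651375-209651624 on the minus strand for LAMB3, chr18:23872770-23873019 on the plus strand for LAMA3 and chr7:108003162-108003411 on the minus strand for LAMB1. TGANTCA was found once before this LAMB3 start, beginning 67 bases before it, and in the LAMA3 window beginning 125 and 69 bases before the RefSeq start. It was found in none of the other 8 windows of the 9 genes, the other LAMB3 starts included, and in 6.57% of 35116 promoter windows of this length. GENCODE starts lie inside some of these windows. It places the first base of a short LAMA3 transcript of 5671 bases at 23872840, so both LAMA3 matches lie after that start, and that of another, of 5007 bases, at 23873045, just after the window. It places the first bases of LAMB1 transcripts at 108003255 and 108003187, inside the LAMB1 window. For LAMB3, GENCODE places the first base of a transcript of 4305 bases at 209651334, just after the window shown. Its LAMB3 transcripts of 4055 and 3931 bases start at 209652466 and 209652329, upstream of that window. The box GGGCGG, read on both strands, was found before at least 1 start of all 7 genes and in 42.6% of all windows. CCAAT, in 32.0% of all windows, was found before the LAMB3 start shown and at no other of the 10 starts. CACGTG, in 6.34%, was found before 1 start of ITGA6, and GGAATG, in 11.9%, before none. No 2 different motifs overlapped in the windows shown. A match of letters is a description and shows no binding.

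LAMB3, the beta 3 chain of the hemidesmosome laminin, had the largest change of the 9 genes. It stood at 157, 151 and 149 CPM in shPRSS22 libraries, against 125, 123 and 117 CPM in shCtrl libraries. Every shPRSS22 library was above every shCtrl library. The means were 152 ± 4.18 CPM in shPRSS22 and 121 ± 3.94 CPM in shCtrl (SD, n = 3 each), a log2 fold change of 0.32 (SE 0.0373; edgeR, adjusted p = 2.05e-08). GENCODE release 29 (GRCh38) places it at chr1:209614870-209652466, minus strand (Entrez 3914).

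LAMB1, the beta 1 chain, also rose. It stood at 246, 237 and 248 CPM in shPRSS22 libraries, against 216, 218 and 218 CPM in shCtrl libraries, and the groups did not overlap. The log2 fold change was 0.17 (SE 0.0330; edgeR, adjusted p = 1.63e-04). LAMB1 (Entrez 3912; chr7:107923799-108003255, minus strand) shares 70 exon bases with DLD and 221 with an antisense gene, both on the other strand, whose reads there cannot be told apart from its own without strand information.

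LAMC1 and LAMA3 also rose, but their calls depended on single libraries. LAMC1, the gamma 1 chain, stood at 203, 214 and 206 CPM in shPRSS22 libraries, against 197, 196 and 189.5 CPM in shCtrl libraries. The lowest shPRSS22 library was above the highest shCtrl library, with a log2 fold change of 0.10 (SE 0.0341; edgeR, adjusted p = 0.0189). Leaving out shCtrl replicate 3 (adjusted p = 0.0852) or shPRSS22 replicate 2 (0.0754) ended the call. LAMC1 (Entrez 3915) is at chr1:183023460-183145592, plus strand.

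LAMA3, the alpha 3 chain of the hemidesmosome laminin, was the lowest of the 9 genes. It stood at 27.5, 30.0 and 30.2 CPM in shPRSS22 libraries, against 25.8, 26.5 and 26.2 CPM in shCtrl libraries. Its groups did not overlap, but shPRSS22 replicate 1 was close to the shCtrl libraries, and the log2 fold change of 0.16 (SE 0.0633) passed the threshold narrowly (edgeR, adjusted p = 0.0403). The call was lost when any library other than shPRSS22 replicate 1 was left out, with adjusted p between 0.0728 and 0.123 in those 5 fits, and in DESeq2 (0.182). LAMA3 (Entrez 3909) is at chr18:23689443-23956222, plus strand.

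LAMA5, the alpha 5 chain, did not pass the test. It stood at 284, 259.8 and 262 CPM in shPRSS22 libraries, against 277, 259.6 and 259 CPM in shCtrl libraries, and the groups overlapped. The log2 fold change was 0.018, with a 95% interval from -0.058 to 0.093 (edgeR, adjusted p = 0.741). LAMA5 (Entrez 3911; chr20:62307955-62367312, minus strand) shares 244 exon bases with ADRM1 on the other strand.

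Laminin chains other than the 9 genes were read beside them. LAMB2, the beta 2 chain, which can take the place of LAMB1, rose: it stood at 243, 238 and 238 CPM in shPRSS22 libraries, against 209, 200.1 and 189.6 CPM in shCtrl libraries (log2 fold change 0.27, SE 0.0354; edgeR, adjusted p = 3.60e-07). LAMC3, the gamma 3 chain, fell to 26.3 ± 0.238 CPM in shPRSS22, against 31.3 ± 1.67 CPM in shCtrl (SD, n = 3 each; log2 fold change -0.25). In all, 1 of the 6 other laminin chains tested was higher and 1 was lower, beside 19.9% higher and 19.3% lower among all genes tested. LAMA1, LAMA2 and LAMA4 stood below 7 CPM in every library and did not pass.

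**Figure D2:**
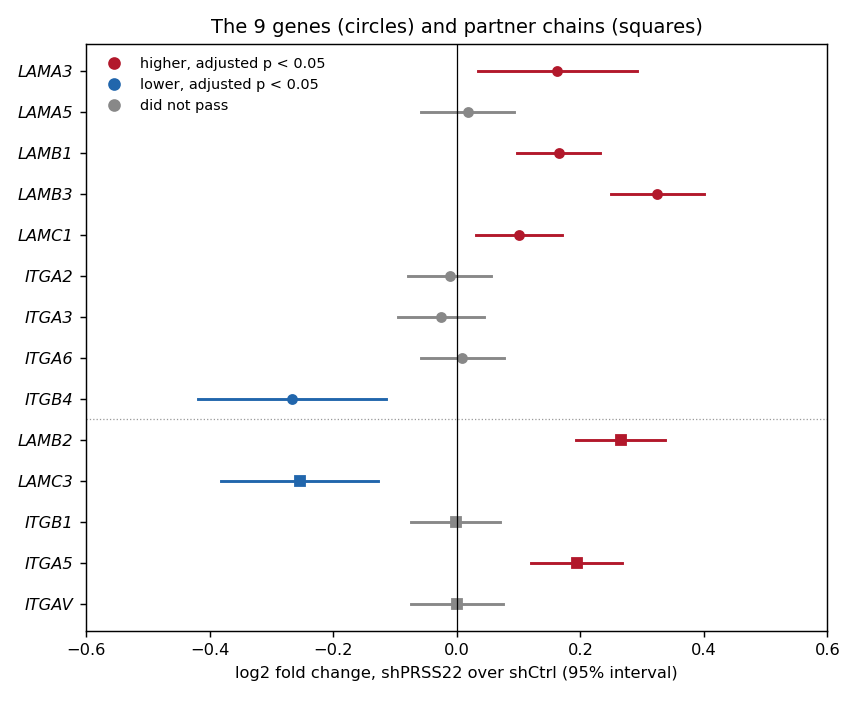
Log2 fold change of shPRSS22 over shCtrl (horizontal axis) with its 95% interval, from the edgeR fit over all genes, for the 9 genes (circles) and for partner or related chains (squares). The intervals of LAMB3 (0.249 to 0.401) and ITGB4 (-0.419 to -0.114) lie on opposite sides of 0, and those of ITGA2, ITGA3, ITGA6, LAMA5, ITGB1 and ITGAV cross it.

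ITGB4, the integrin beta 4 chain of hemidesmosomes, was the one of the 9 genes that fell. It stood at 389, 386 and 334 CPM in shPRSS22 libraries, against 464, 455 and 415 CPM in shCtrl libraries. The groups did not overlap, and replicate 3 was the lowest library in each group. The means were 369.8 ± 31.0 CPM in shPRSS22 and 445 ± 25.8 CPM in shCtrl (SD, n = 3 each), a log2 fold change of -0.27 (SE 0.0659; edgeR, adjusted p = 0.0132). Without both libraries numbered 3 it was -0.24 (adjusted p = 4.49e-05), and without shPRSS22 replicate 2 the call was lost at -0.30 (adjusted p = 0.0579). In bulk RNA, fewer cells with a transcript and less of it per cell cannot be told apart. ITGB4 (Entrez 3691) is at chr17:75721328-75757818, plus strand.

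The integrin alpha chains were measured precisely and none passed the test. ITGA6, the partner of ITGB4, stood at 299.6, 310.1 and 311 CPM in shPRSS22 libraries, against 301, 314 and 300.0 CPM in shCtrl libraries (log2 fold change 0.0092, 95% interval -0.059 to 0.077; edgeR, adjusted p = 0.855). ITGA3, which pairs with ITGB1 as a laminin receptor, stood at 1366, 1323 and 1361 CPM in shPRSS22 libraries, against 1389, 1372 and 1360.0 CPM in shCtrl libraries (-0.025, interval -0.095 to 0.044; adjusted p = 0.594). ITGA2, the alpha chain of a collagen receptor, stood at 418, 415 and 436 CPM in shPRSS22 libraries, against 426, 422 and 431 CPM in shCtrl libraries (-0.011, interval -0.078 to 0.056; adjusted p = 0.820). The groups overlapped for all 3 genes, and no interval reached further from 0 than 0.095 on the log2 scale. All are on plus strands, ITGA2 (Entrez 3673) at chr5:52989326-53094779, ITGA3 (Entrez 3675) at chr17:50055968-50090481 and ITGA6 (Entrez 3655) at chr2:172427354-172506282. ITGA6 shares up to 174 exon bases with an antisense gene, whose reads there cannot be told apart from its own.

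ITGB1, the beta chain that ITGA2 and ITGA3 need and that ITGA6 can also use, did not pass either, at 2077, 2118 and 2136 CPM in shPRSS22 libraries, against 2080.0, 2092 and 2165 CPM in shCtrl libraries (log2 fold change -0.0015, 95% interval -0.074 to 0.071; edgeR, adjusted p = 0.979).

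In the authors' deposited table, 3 of the 9 genes had a q-value under 0.05, as did 18.6% of 16977 genes: LAMB3, LAMB1 and ITGB4. The authors' deposited table gives LAMC1 a q-value of 0.0650 and LAMA3 one of 0.236, with log2 fold changes of 0.10 and 0.16.

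Levels of different genes were set side by side per length, with the deposited TPM (transcripts per 1000000 transcripts). ITGA3 was the most abundant of the 9 at 474 ± 18.8 TPM in shPRSS22 and 478 ± 3.88 TPM in shCtrl (SD, n = 3 each). The other integrin chains followed, with ITGB4 at 110.7 ± 8.81 TPM in shPRSS22 and 132.5 ± 6.94 TPM in shCtrl, then ITGA6 and ITGA2. The ranges of neighbours in this order did not overlap in either group. The laminin chains were all lower. LAMB1 averaged 73.1 ± 3.21 TPM in shPRSS22 and 64.8 ± 0.607 TPM in shCtrl, and LAMB3 66.3 ± 2.75 TPM in shPRSS22 and 52.2 ± 1.39 TPM in shCtrl; the ranges of LAMB1 and LAMB3 overlapped in shPRSS22 and not in shCtrl. LAMC1 and LAMA5 came next, without overlap in either group, and LAMA3 was the least abundant at 8.69 ± 0.382 TPM in shPRSS22 and 7.71 ± 0.119 TPM in shCtrl. The order of the 9 genes was the same in both groups.

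**Figure D3:**
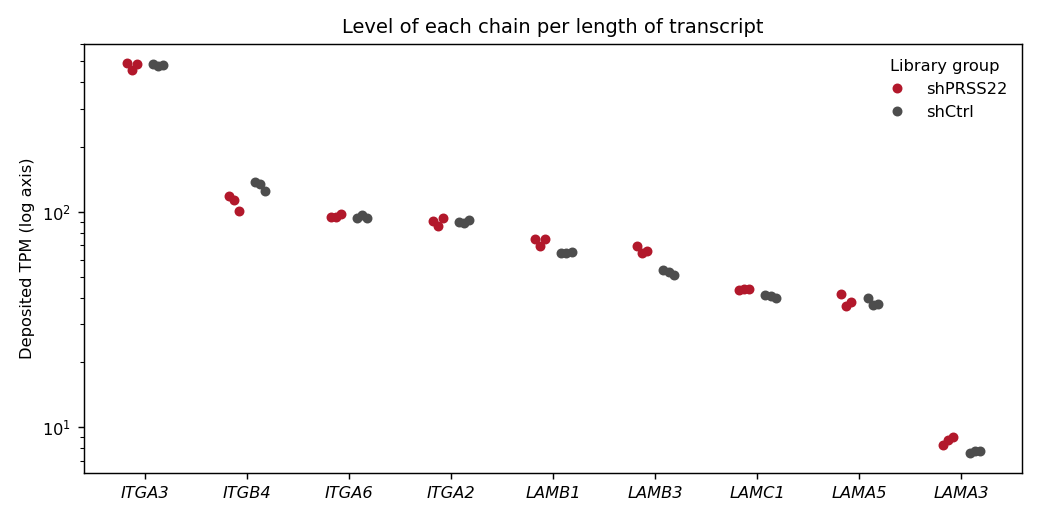
Deposited TPM of the 9 genes in every library (log axis), ordered by their mean in shPRSS22, with shPRSS22 libraries on the left and shCtrl libraries on the right of each gene. ITGA3, near 474 TPM, and LAMA3, near 8.69 TPM, form the ends of the order, and the integrin chains lie above the laminin chains.

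Ratios of chains that share a place in the trimer or a partner were taken within each library from TPM. With 3 libraries against 3, the exact two-sided permutation test cannot give a p below 0.1, so the 4 ratios are mainly a description, and no adjustment over them can pass the threshold. LAMB3 to LAMB1 was 0.928, 0.924 and 0.872 in shPRSS22 libraries, against 0.833, 0.810 and 0.776 in shCtrl libraries, which do not overlap (exact permutation p = 0.1, the smallest possible). ITGB4 to ITGA6 was 1.25, 1.20 and 1.04 in shPRSS22 libraries, against 1.48, 1.402 and 1.33 in shCtrl libraries, which do not overlap either (exact permutation p = 0.1). LAMA3 to LAMA5 was 0.199, 0.239 and 0.238 in shPRSS22 libraries, against 0.191, 0.210 and 0.207 in shCtrl libraries, with overlap (exact permutation p = 0.3). ITGA6 to ITGA3 was 0.201 ± 0.00702 in shPRSS22 and 0.197 ± 0.00502 in shCtrl (SD, n = 3 each), also with overlap (exact permutation p = 0.5).

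**Figure D4:**
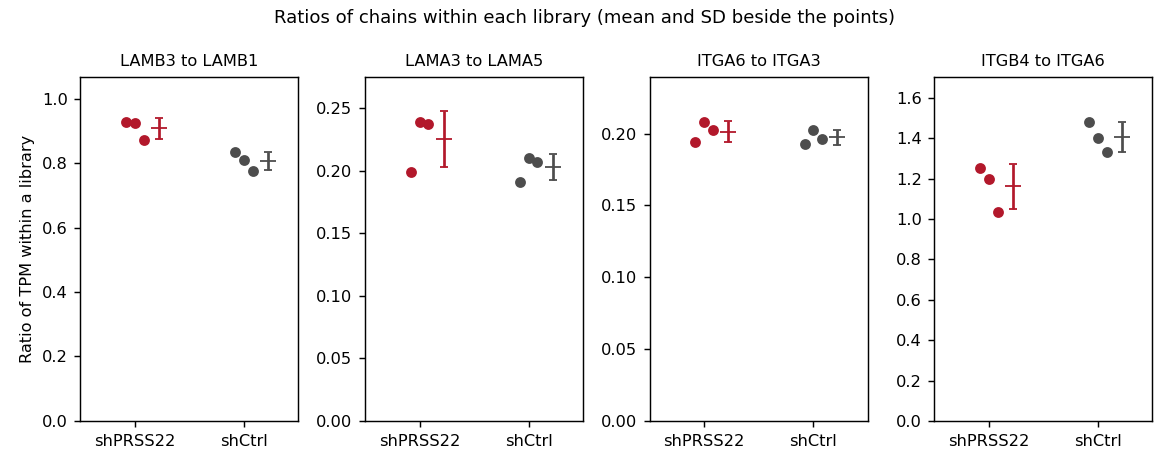
Ratio of the deposited TPM of 2 chains within each library (vertical axes from 0), with points for libraries and the mean and SD of 3 libraries beside them, shPRSS22 on the left. The LAMB3 to LAMB1 ratio lies between 0.872 and 0.928 in shPRSS22 libraries and below that in every shCtrl library, while ITGB4 to ITGA6 is lower in every shPRSS22 library.

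Other genes of cell-matrix adhesion were read from the same fit. Of 120 such genes in 9 lists, 98 were tested; 21 were higher and 30 lower in shPRSS22, beside 19.9% higher and 19.3% lower among all genes tested, with a median log2 fold change of -0.030 against -0.0056 over all genes tested.

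Among 14 other integrin chains tested, 3 rose and 2 fell (median -0.00064), beside 19.9% higher and 19.3% lower among all genes tested. ITGA5, the alpha chain of the fibronectin receptor, rose to 163 ± 5.62 CPM in shPRSS22, against 143 ± 2.62 CPM in shCtrl (log2 fold change 0.19; edgeR, adjusted p = 6.55e-05). ITGA1, a collagen-binding alpha chain (0.31, at 8.99 CPM in shPRSS22 and 7.23 CPM in shCtrl), and ITGAE, which pairs with beta 7 (0.30), rose at low levels, and their calls were lost in 7 and 8 of 14 alternative fits, so that 1 chain of the list rose when shCtrl replicate 1 or 2 was left out. The beta chains ITGB5 and ITGB8, which pair with ITGAV, fell: ITGB5 stood at 126, 128 and 126 CPM in shPRSS22 libraries, against 167, 155 and 163 CPM in shCtrl libraries (-0.35), and ITGB8 at 14.4 ± 1.01 CPM in shPRSS22, against 19.9 ± 0.333 CPM in shCtrl (-0.47; SD, n = 3 each). ITGAV itself stood at 182 ± 7.35 CPM in shPRSS22 and 182 ± 5.75 CPM in shCtrl and did not pass (adjusted p = 0.997).

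In the list of hemidesmosome and related genes, 2 of 6 tested rose and 1 fell (median 0.094). Among all genes tested, 19.9% were higher and 19.3% lower. CD151, a tetraspanin that binds laminin-binding integrins, rose to 199 ± 2.53 CPM in shPRSS22, against 175 ± 4.49 CPM in shCtrl (log2 fold change 0.19; edgeR, adjusted p = 4.20e-05), and ERBIN, which binds the tail of ITGB4, rose by 0.25. FERMT1, the kindlin of epithelial cells, was the 1 gene of this list that fell, by 0.18 on the log2 scale. The related kindlin FERMT2 was placed in the adaptor list. The call of FERMT1 ended in 4 of 14 alternative fits, among them those leaving out shCtrl replicate 1 (edgeR, adjusted p = 0.0564) or shPRSS22 replicate 3 (0.0503). PLEC, plectin, the linker between ITGB4 and keratin, stood at 529 ± 28.3 CPM in shPRSS22 and 555 ± 35.1 CPM in shCtrl (SD, n = 3 each) and did not pass (-0.071, adjusted p = 0.213); with the replicate number as a block its adjusted p was 0.0329.

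Of 14 basement membrane components other than laminins tested, 8 were lower and 1 higher (median -0.20), beside 19.3% lower and 19.9% higher among all genes tested; 6 to 8 were lower in every alternative fit. COL18A1, the collagen that carries endostatin, stood at 185, 191 and 176 CPM in shPRSS22 libraries, against 282, 268 and 272 CPM in shCtrl libraries (log2 fold change -0.58, SE 0.0353; edgeR, adjusted p = 1.48e-14). SPARC, a collagen-binding secreted protein, fell by 0.58 on the log2 scale, at 5.84 CPM in shPRSS22 and 8.71 CPM in shCtrl. Named after their values were seen, the proteoglycans HSPG2, perlecan (-0.33), and AGRN, agrin (-0.32), which binds laminin, fell, as did FRAS1 (-0.39) and the collagen IV chains COL4A3 (-0.55), COL4A4 (-0.24) and COL4A5 (-0.16), of which COL4A4 lost its call in 4 and COL4A5 in 7 of 14 alternative fits. COL4A6 was the gene of the list that rose (0.50), at 4.67 CPM in shPRSS22 and 3.29 CPM in shCtrl with overlapping groups, and it lost its call in 6 of 14 alternative fits. The common collagen IV chains COL4A1 and COL4A2 had too few counts to be tested, 11 and 4 over the shPRSS22 libraries and 6 and 2 over the shCtrl libraries. NID1 and NID2, the nidogens, are not among the genes of the deposited table, so they could not be tested.

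Of 7 other matrix receptors tested, 1 rose and 4 fell (median -0.15), beside 19.9% higher and 19.3% lower among all genes tested. DAG1, dystroglycan, which binds laminin through its sugars, stood at 213, 221 and 216 CPM in shPRSS22 libraries, against 240.0, 237 and 244 CPM in shCtrl libraries (log2 fold change -0.15; edgeR, adjusted p = 6.05e-04). The collagen receptor kinase DDR1 fell by 0.32 and the syndecan SDC4 by 0.35 on the log2 scale. BCAM, a receptor for the laminin alpha 5 chain named after its value was seen, fell by 0.18 on the log2 scale with overlapping groups, and lost its call in 6 of 14 alternative fits. DDR2, the related kinase, rose by 0.41 at 6.31 CPM in shPRSS22 and 4.75 CPM in shCtrl, with overlapping groups, and lost its call in 7 of 14 alternative fits. Among 12 genes that build the laminin-binding sugar of dystroglycan, 1 rose and 4 fell (median -0.071), beside the same shares of all genes tested. When shCtrl replicate 3 or shPRSS22 replicate 2 was left out, 2 fell. LARGE2, a glycosyltransferase of its last step, fell by 0.38 on the log2 scale, at 31.0 ± 2.32 CPM in shPRSS22 and 40.5 ± 0.735 CPM in shCtrl (SD, n = 3 each). RXYLT1, a xylosyltransferase of the same sugar, fell by 0.21 and lost its call in 5 of 14 alternative fits.

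Adaptors that link integrins to actin moved both ways, with 11 of 30 higher and 6 lower (median 0.068), or 10 higher and 3 lower without shCtrl replicate 2. Shares of 19.9% higher and 19.3% lower among all genes tested stand beside each list of this paragraph. NEDD9, a scaffold of focal adhesions, rose by 0.48, and the kinase SRC by 0.38, at 43.1 ± 1.12 CPM in shPRSS22 and 33.2 ± 0.718 CPM in shCtrl (SD, n = 3 each). PARVA, alpha-parvin, and LIMS1, which form a complex with the kinase ILK, fell by 0.51 and 0.46 on the log2 scale, while, named after their values were seen, ILK (0.18) and RSU1, a partner of LIMS1 (0.20), rose. The call of ILK ended without shPRSS22 replicate 2 (edgeR, adjusted p = 0.0764). PARVA stood at 52.0, 57.7 and 56.0 CPM in shPRSS22 libraries, against 78.2, 74.6 and 83.9 CPM in shCtrl libraries. Among 5 tetraspanins tested, CD9 rose by 0.16, and 3 fell, CD81 by 0.34 and TSPAN4 by 0.29 on the log2 scale among them; TSPAN4 missed the threshold in DESeq2 (adjusted p = 0.0539). Of 4 tested proteases that can cut laminin chains, BMP1, which processes several matrix proteins, fell to 36.0 ± 1.99 CPM in shPRSS22, against 47.7 ± 1.26 CPM in shCtrl (SD, n = 3 each; log2 fold change -0.41; edgeR, adjusted p = 5.09e-07), and MMP14, TLL1 and TLL2 did not pass, TLL1 with a log2 fold change of 0.44 that passed without shPRSS22 replicate 3 (0.60, adjusted p = 0.0307).

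**Figure D5:**
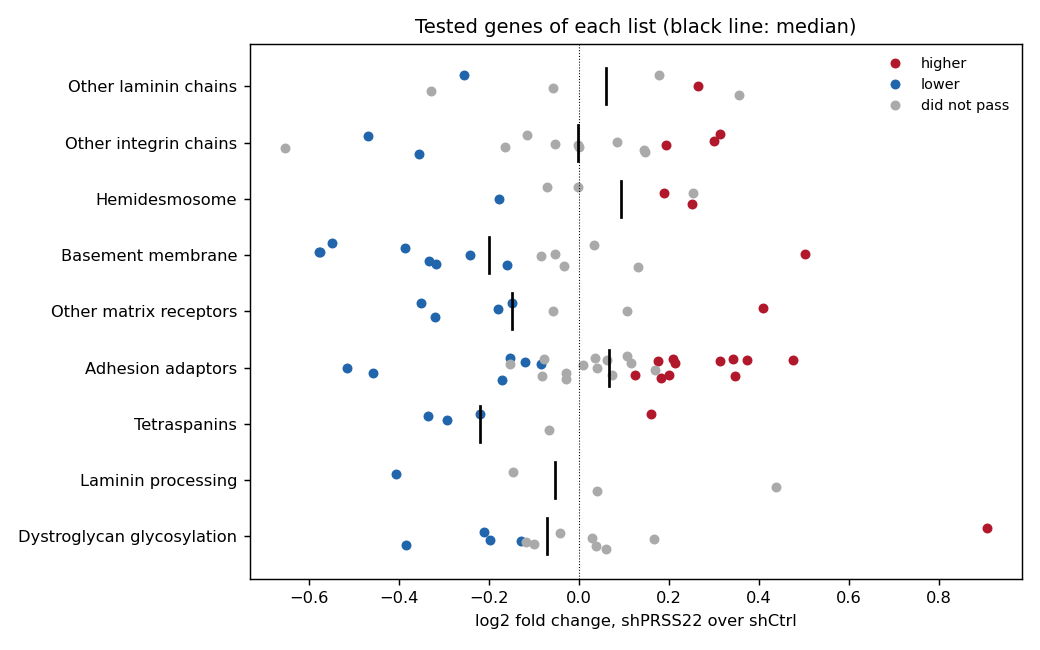
Log2 fold change of shPRSS22 over shCtrl (horizontal axis) for the tested genes of 9 lists of cell-matrix adhesion, with points for genes, coloured by whether they were higher, lower or did not pass at an adjusted p under 0.05, and a black line at the median of each list. The basement membrane list has its median at -0.20, with 8 of 14 genes lower, while the adhesion adaptor list spreads to both sides.

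The genes whose pattern over the 6 libraries was most like that of LAMB3, by the distance of centred log2 CPM among 11156 genes with a mean of at least 5 CPM, were ERRFI1, an inhibitor of the EGF receptor (distance 0.043), PMAIP1, a BH3-only protein (0.053), and TLN2, talin 2 (0.055). Those most like ITGB4 were PLEKHG4 (0.045), GATD3B (0.050) and PNN (0.071); GATD3B has a near-identical copy, so its counts are less certain. The log2 fold changes of the first set were 0.32 (ERRFI1), 0.34 (PMAIP1) and 0.31 (TLN2), and those of the second -0.26 (PLEKHG4), -0.26 (GATD3B) and -0.22 (PNN). The distance includes the difference between groups, so fold changes near those of LAMB3 and ITGB4 follow from how these genes were chosen.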

How the data were processed

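The authors deposited 1 table with read counts, FPKM, TPM and normalised read counts (a scaled signal) per library, their means, and the log2 fold change, p-value and q-value of their own comparison, per the file headers. The deposited counts are estimated counts with decimals in some genes, but none in the 9 genes. The submitters' processing notes name, without roles, RSEM 1.3.1, HISAT2 2.2.1, DESeq2 1.4.5, Bowtie2 2.3.4.3, R 4.3.1 and FastQC 0.12.1, with build GRCh38.p13. The labels' protocols describe poly(A) capture and random priming and name no step that marks strand.

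Counts were rounded and tested with edgeR 4.0.16 (R 4.3.3; TMM, filterByExpr, robust glmQLFit and glmQLFTest), shPRSS22 against shCtrl, two-sided, with Benjamini-Hochberg adjustment over 13104 genes and a threshold of 0.05. CPM are per 1000000 TMM-scaled counts of tested genes; marker levels use unscaled totals. The SE is the log2 fold change divided by the square root of F. Ratios use the deposited TPM and an exact permutation test (scipy 1.17.1). The deposited FPKM was used for lengths and for ratios as an alternative. Within a library, ratios from FPKM and TPM can differ only by rounding, so this alternative is no check on them. DESeq2 1.42.0 and limma 3.58.1, on log2(TPM + 0.5), were alternatives. The code was tested on simulated data. The 9 genes and all lists were chosen with earlier results of these data known. Besides the 9 genes, the text names fixed partners, up to 2 rises and 2 falls per list at a mean of at least 1 CPM, and 3 nearest genes; some genes under these rules are not reported here. The common coefficient of variation between libraries beyond counting noise was 2.97%, which limits the precision together with depth.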

Additional observations from a re-analysis of the deposited data

How the results depend on the processing

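Results were recomputed under 14 settings. LAMB3 and LAMB1 were higher past the threshold in all of them, at log2 fold changes of 0.30 to 0.34 and 0.15 to 0.19, and LAMA5, ITGA2, ITGA3 and ITGA6 passed in none. Leaving out 1 library at a time, 2 to 4 of the 9 genes were higher and 0 to 1 lower; the log2 fold change ranged from -0.31 to -0.20 for ITGB4, 0.14 to 0.21 for LAMA3 and 0.082 to 0.12 for LAMC1. LAMA3 lost its call in DESeq2 (log2 fold change 0.16), in limma on TPM (0.16) and without both libraries numbered 3 (0.14), and LAMC1 in limma on TPM (0.11) and without both libraries numbered 3 (0.093). The number higher was 2 in limma, 2 without both libraries numbered 3 and 2 by the authors' deposited q-value; the last 2 settings were chosen after seeing the data. DESeq2 called 1637 of all genes lower, against 2523, and 1760 higher, against 2603. Limma called 2222 higher and 1887 lower, and the fit without both libraries numbered 3 called 2089 higher and 1948 lower. The causes were not tested. Same-numbered libraries of the groups had correlated deviations (Pearson's r 0.079, 0.080 and 0.167 across 11170 genes, which are not independent), each library best with its own number, but not all over 0.1, so the numbers were not taken as pairs. With the replicate block, 2782 genes were higher and 2747 lower, and the calls of the 9 genes kept their sides of the threshold.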

Other observations

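The deposited counts and FPKM together give the transcript length that each library's FPKM assumed, a value set by the transcripts that reads were assigned to and by the annotation used. For ITGA2, with 1 coding transcript of 7869 bases in GENCODE, it was 7522 to 7532 bases, a mean of 339 bases less. For LAMA3 it was 5360 to 5402 bases in the 6 libraries. GENCODE lists coding LAMA3 transcripts of 10661, 9834, 5671 and 5007 bases in its basic set. Adding the difference seen for ITGA2 gives 5726 bases, near the 5671 bases of the transcript that starts at 23872840. A mixture of the other transcripts can give the same length, and which LAMA3 transcripts were present was not tested. The difference also varies between genes: LAMC1, with 1 basic coding transcript of 7889 bases, had 7606 to 7618 bases, a smaller difference than ITGA2. For LAMB3 the length was 3671, 3663 and 3675 bases in shPRSS22 libraries, against 3685, 3702 and 3692 bases in shCtrl libraries, without overlap. GENCODE lists LAMB3 transcripts of 4305, 4055 and 3931 bases. The ITGB4 lengths did not overlap either, in the other direction. They were 5348, 5342 and 5341 bases in shPRSS22 libraries, against 5325, 5332 and 5336 bases in shCtrl libraries. LAMA5, with 1 basic coding transcript, still ranged from 11054 to 11100 bases over the libraries. The share of all genes without overlap in length was not computed. These differences between groups were not tested.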
